A study of Homo sapiens with 6 samples.

Results

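The genes described here encode molecular chaperones and their partners in the cytosol, the mitochondria and the endoplasmic reticulum (ER), together with sensors and transcription factors of ER stress. They were taken from a list of 49 names, and 46 of these had a row in the deposited table of 19361 rows, each named by an Entrez gene ID. Of the 46, 21 act in the cytosol, 4 in mitochondria and 21 in or around the ER. HSPB1, HSPD1 and HSPE1 were not analysed here. All 46 lay above the limit on dim rows and were tested.

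Expression was measured on Affymetrix U133 Plus 2.0 arrays in cells of UMUC-14, a human bladder cancer line. The controls were 3 arrays of cells given the transfection reagent LipofectaminRNAimax alone, called lipofectamine below. The other 3 arrays came from cells in which FGFR3, a receptor tyrosine kinase for fibroblast growth factors, was targeted, each with its own siRNA: siFGFR3#35, siFGFR3#36 or siFGFR3#3. Transfection lasted 40 h in both groups, 100 ng of total RNA was labelled per array, and the medium was DMEM with serum. No group with a non-targeting siRNA was analysed here, so effects of any transfected siRNA and of lower FGFR3 cannot be told apart. The siFGFR3 arrays differ in their siRNA and so come from separate transfections, and their spread includes differences between siRNAs. Nothing in the labels tells if the lipofectamine arrays stem from different cultures, so the spread among the controls may be technical. The p-values set differences between the groups against the spread within these samples only.

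Chaperones bind proteins that are not yet folded or have lost their fold. In the cytosol, Hsp70 and Hsp90 proteins work in cycles of ATP hydrolysis with J-domain proteins and nucleotide exchange factors, and the ring-shaped CCT chaperonin encloses substrates such as actin and tubulin. Mitochondria and the ER each have their own Hsp70 and Hsp90 proteins, and the ER adds lectin chaperones and disulfide isomerases for secreted and membrane proteins. Stress pathways match supply to need: HSF1 drives heat shock genes of the cytosol, while ERN1 (IRE1), ATF6 and the kinase PERK drive the unfolded protein response of the ER.

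The values are log2 expression levels. Their 6 array medians lay between 5.41 and 5.52, and no read depth exists for arrays. The targeted gene FGFR3 was at 8.70, 8.75 and 8.74 on the lipofectamine arrays and at 7.47, 7.14 and 8.45 with siFGFR3#35, siFGFR3#36 and siFGFR3#3. Its level was thus 41.7%, 33.3% and 82.2% of the control mean, so the siRNAs differed in how far they lowered it. Of 12 matched urothelial and epithelial markers 10 lay above the limit on dim rows, with KRT20 and UPK1A below it. So did 4 of 5 leukocyte, 2 of 5 fibroblast and 1 of 4 endothelial markers, so passing this limit does not by itself tell cell types apart. The mean level of 18 interferon-stimulated genes was 6.95 to 7.06 on the lipofectamine arrays and 8.27, 10.31 and 7.58 with siFGFR3#35, siFGFR3#36 and siFGFR3#3. Whether that response has a part in the values below was not tested.

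Most of the chaperone genes were lower in siFGFR3 cells, and the listed genes of the compartments differed in how far. All 4 mitochondrial chaperones fell, 15 of 21 cytosolic genes fell and 1 rose, and 11 of 21 ER genes fell and 2 rose, at an adjusted p under 0.05 in limma (Benjamini-Hochberg over 13552 genes). Among all genes tested 24.6% fell and 20.6% rose, 45.1% in either direction. With each array centred on its median those shares were 31.6% and 17.1%, and 32 of the 46 fell and 3 rose. The median change, siFGFR3 minus lipofectamine on the log2 scale, was −0.81 in mitochondria, −0.46 in the cytosol and −0.27 in the ER, against −0.04 over all genes tested. The gap between cytosol and ER depended on which genes were listed. Without the CCT subunits the cytosolic median was −0.31, with 7 of 13 genes lower and 1 higher. Without the ER stress sensors and factors the ER median was −0.29, with 10 of 16 lower and 1 higher. The mitochondrial changes ranged from −0.90 to −0.67 and those of the ER from −0.64 to 0.50. The cytosolic range, −1.01 to 0.41, spanned nearly all of both. The mitochondrial and ER ranges did not overlap, but they lay close. At their facing ends, the limma intervals of DNAJA3 (−0.88 to −0.45) and SDF2L1 (−0.91 to −0.36) overlapped. By single siRNA the ranges overlapped with siFGFR3#35 (DNAJA3 −0.80, SDF2L1 −0.90) and siFGFR3#36 (DNAJA3 −0.46, MANF −0.66). With siFGFR3#3 they did not (DNAJA3 −0.74, SDF2L1 −0.57). The medians and ranges are descriptions of chosen genes, and no test was made between compartments.

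**Figure D1:**
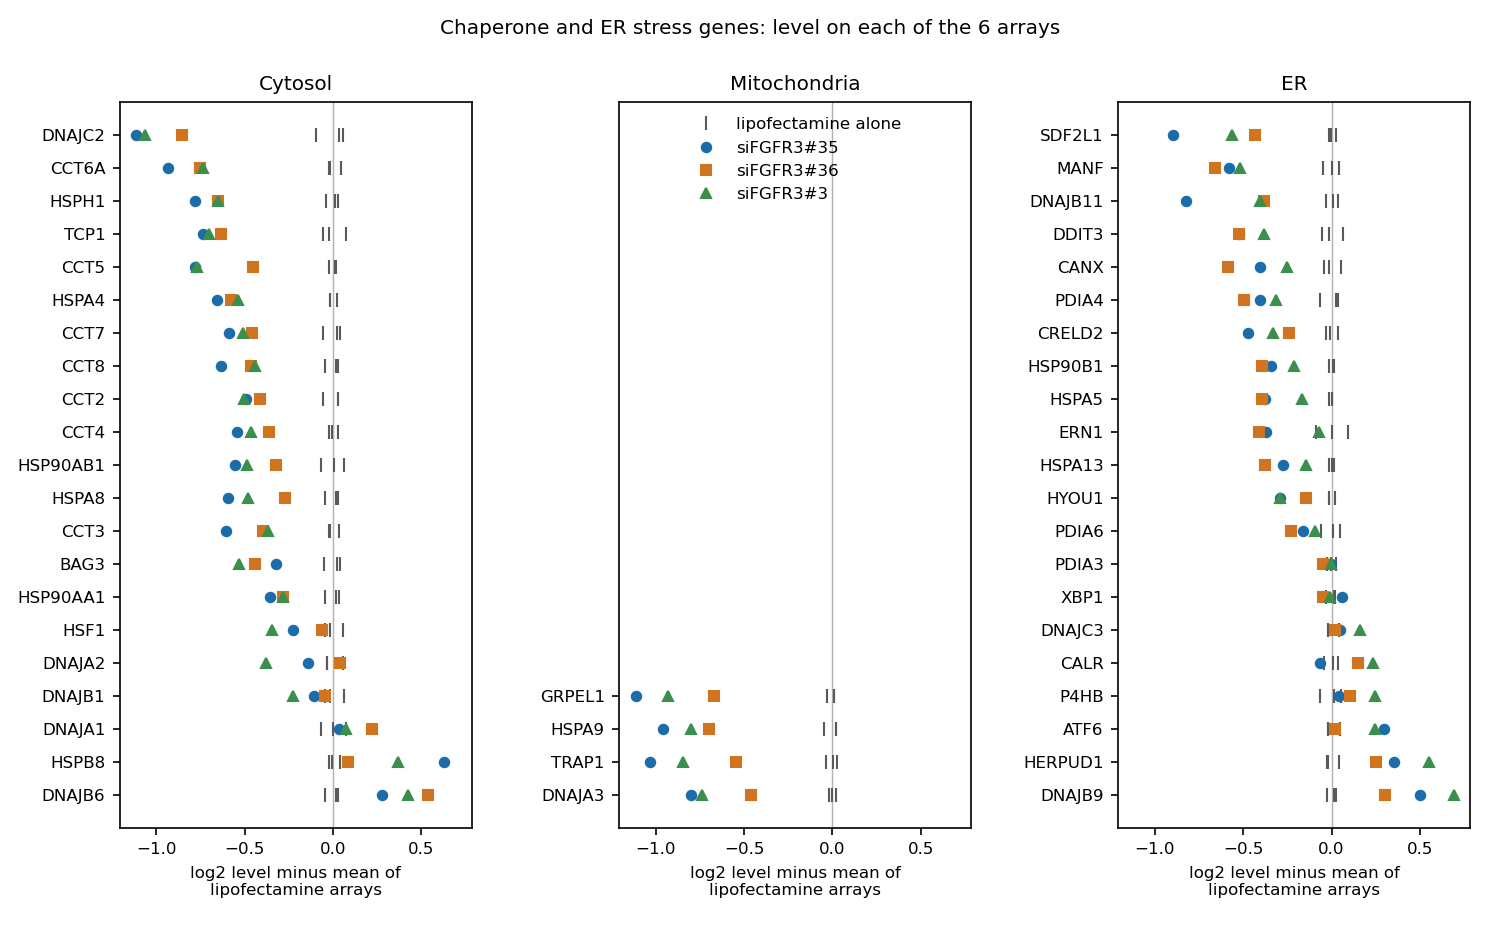
Level of each of the 46 genes on each of the 6 arrays, as the log2 level minus the mean of the 3 lipofectamine arrays (horizontal axis), by compartment. Grey ticks are lipofectamine arrays and coloured points the 3 siRNA arrays; the siRNA points of all 4 mitochondrial genes lie left of their controls, while DNAJB9, HERPUD1 and DNAJB6 lie to the right.

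In 36 of the 46 genes the 3 siFGFR3 arrays did not overlap the 3 lipofectamine arrays, 32 of them lower and 4 higher. Among all genes tested the groups did not overlap in 60.8%, with 33.9% lower and 26.9% higher. The siRNAs served as the replicates of their group, and their spread was wider than that of the controls, with a median SD over all tested genes of 0.129 against 0.0536.

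Of the 7 listed genes of the cytosolic Hsp90 and Hsp70 system, 6 fell and HSF1 did not pass. A fall was called in 85.7% of them, against 24.6% of all genes tested. HSP90AA1, the stress-inducible Hsp90, was at 13.10, 13.04 and 13.12 with lipofectamine and at 12.73, 12.80 and 12.80 with siFGFR3#35, siFGFR3#36 and siFGFR3#3. Its partner isoform HSP90AB1, made constitutively, was at 11.97, 12.03 and 11.90 and at 11.41, 11.64 and 11.48 in the same order of arrays, an order kept in all such lists below. In both genes every siRNA array lay below every control. HSP90AA1 fell by 0.31 (SE 0.04, adjusted p = 0.00158) and HSP90AB1 by 0.46 (SE 0.07, adjusted p = 0.00254).

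HSPA8, the constitutive Hsp70 of the cytosol (Hsc70), was at 12.89, 12.95 and 12.96 with lipofectamine and at 12.34, 12.66 and 12.45 with the siRNAs, and it fell by 0.46 (SE 0.08, adjusted p = 0.00447). HSPA4 and HSPH1 belong to the Hsp110 family, which exchanges nucleotide on Hsp70. HSPA4 was at 10.00, 10.04 and 10.00 and then at 9.36, 9.44 and 9.48, a fall of 0.59 (SE 0.05). HSPH1 was at 9.94, 9.99 and 10.01 and then at 9.20, 9.33 and 9.33, a fall of 0.69 (SE 0.06, adjusted p = 0.00058). The fall left HSPH1 at 61.8% of its control level and HSPA8 at 73%, so the exchange factor changed further than the Hsp70 it serves, although the difference between these genes was not tested.

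BAG3, another exchange factor, which links Hsp70 to the small heat shock protein HSPB8 and to selective autophagy, fell by 0.43 (SE 0.07, adjusted p = 0.00317). HSPB8 itself was at 8.89, 8.87 and 8.93 with lipofectamine and at 9.52, 8.98 and 9.26 with the siRNAs. All 3 siRNA arrays lay above the controls, but the change of 0.36 (SE 0.13) did not pass (adjusted p = 0.0526). It passed with arrayWeights (adjusted p = 0.00494) and without siFGFR3#36 (adjusted p = 0.00282), whose array lay nearest to the controls. HSF1, the master regulator of the heat shock response, was at 5.54, 5.64 and 5.57 and at 5.36, 5.52 and 5.24, a change of −0.21 (SE 0.09, adjusted p = 0.089) that passed without siFGFR3#36 (adjusted p = 0.0204) and with arrayWeights (adjusted p = 0.0362).

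Heat shock factors bind repeats of GAA and TTC. The letters GAANNTTCNNGAA or TTCNNGAANNTTC (either strand, N being any base) were looked for between 250 bases before and 50 bases after each gene start in RefSeq's GRCh38.p14 promoters. They were found in 5 of 19 cytosolic genes with a promoter in that table (26.3%), in 0 of 3 mitochondrial and in 0 of 20 ER genes, against 0.608% of 27303 genes in all. The 5 were HSP90AA1, HSP90AB1, HSPA8, DNAJB6 and DNAJA1, of which the first 3 fell, DNAJB6 rose and DNAJA1 did not pass. A match is not evidence of binding. The following stretches are shown because they carry the motif upstream of members that moved in opposite directions, on the strand of the gene, with the matched letters in capitals.
HSP90AA1, chr14:102087100-102087152 (minus strand): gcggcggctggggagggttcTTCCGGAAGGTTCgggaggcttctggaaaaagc
HSPA8, chr11:123062159-123062211 (minus strand): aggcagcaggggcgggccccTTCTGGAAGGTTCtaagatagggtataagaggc
HSP90AB1, chr6:44247811-44247863 (plus strand): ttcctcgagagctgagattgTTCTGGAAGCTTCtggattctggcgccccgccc
DNAJB6, chr7:157336853-157336905 (plus strand): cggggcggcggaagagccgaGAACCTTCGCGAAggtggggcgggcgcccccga

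Of the 5 cytosolic J-domain proteins, which recruit Hsp70 to its substrates, 1 fell, 1 rose and 3 did not pass. That was 40% in either direction, against 45.1% of all genes tested. DNAJC2, a J-domain protein bound to ribosomes that acts on nascent chains, was at 10.29, 10.31 and 10.16 with lipofectamine and at 9.14, 9.40 and 9.19 with the siRNAs. It fell by 1.01 (SE 0.08, adjusted p = 0.00051) to 49.5% of its control level, the largest change among the 46 genes. Only 0.856% of all genes tested changed to a lower value than DNAJC2. DNAJB6, which holds back aggregation of polyglutamine proteins, was at 7.80, 7.81 and 7.74 and then at 8.06, 8.32 and 8.21, and it rose by 0.41 (SE 0.08, adjusted p = 0.00673). DNAJA1, DNAJA2 and DNAJB1, general partners of Hsp70, changed by 0.11, −0.16 and −0.12 with adjusted p of 0.207, 0.249 and 0.164, and their groups overlapped. For DNAJA2 the 95% interval of the change ran from −0.42 to 0.09, and it passed toward lower levels without siFGFR3#36 (adjusted p = 0.0334) and with arrayWeights (adjusted p = 0.0455).

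Against 24.6% of all genes tested, all 8 listed subunit genes of the CCT chaperonin fell. They were lower on every siRNA array than on any control, and the changes lay between −0.81 and −0.45 with a median of −0.52. CCT6A, at 10.61, 10.62 and 10.68 with lipofectamine and 9.70, 9.88 and 9.90 with the siRNAs, changed most, and it fell by 0.81 (SE 0.07, adjusted p = 0.00053). TCP1, the subunit that names the complex, was at 9.19, 9.09 and 9.06 and then at 8.38, 8.48 and 8.41, and it fell by 0.69 (SE 0.06). CCT5 fell by 0.67 (SE 0.10), and its level of 7.96 with siFGFR3#36 lay above the 7.63 and 7.64 of the other siRNAs.

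The other 5 subunits fell by closely similar amounts. CCT7 and CCT8 fell by 0.52 each (SE 0.05 and 0.06), CCT2 by 0.47 (SE 0.05), CCT4 by 0.46 (SE 0.05) and CCT3 by 0.45 (SE 0.07). Their levels in siFGFR3 cells were 69.8% to 73% of the controls, and their 95% intervals overlapped one another. The interval of CCT6A, −0.97 to −0.65, lay wholly below those of CCT7 (−0.64 to −0.40), CCT2, CCT3 and CCT4, and just overlapped that of CCT8 (−0.65 to −0.38). Every CCT call remained under every alternative tried.

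**Figure D2:**
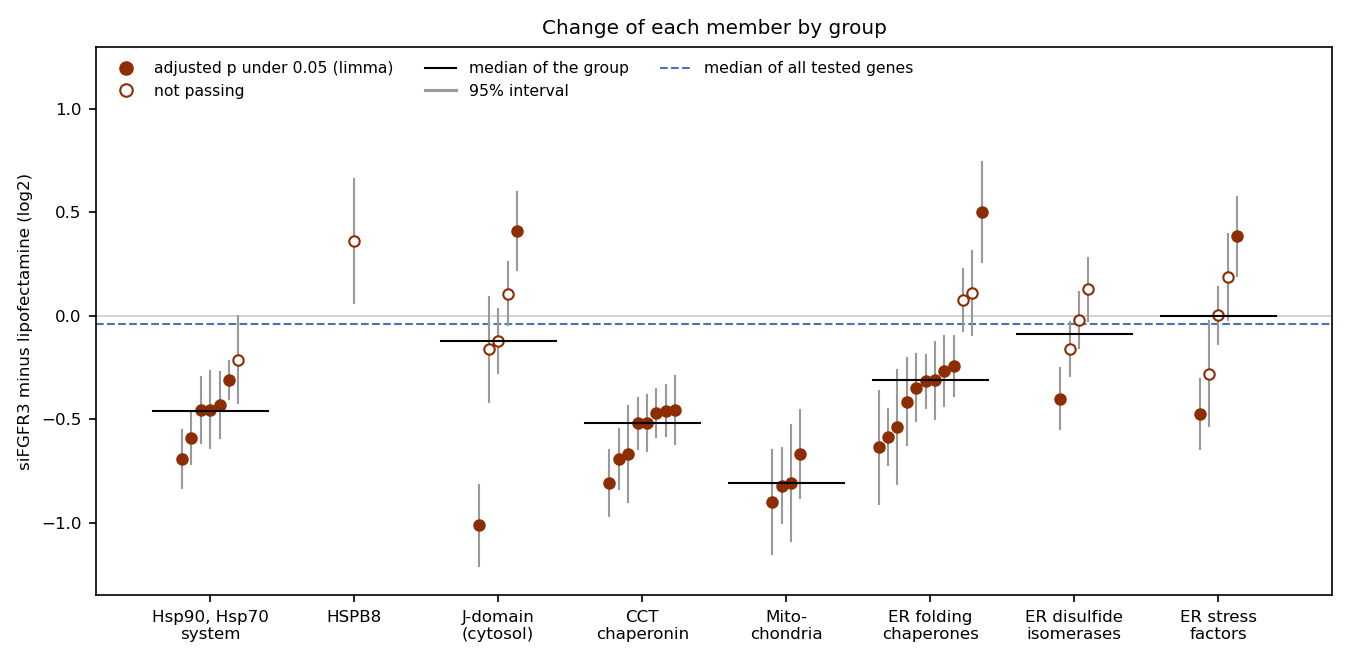
Change of each gene, siFGFR3 minus lipofectamine on the log2 scale, with its 95% interval from limma, by functional group; filled points have an adjusted p under 0.05. Black lines are group medians and the dashed line is the median of all tested genes, −0.04; the CCT and mitochondrial groups are filled throughout, whereas the ER groups spread to both sides of 0.

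All 4 mitochondrial chaperone genes fell; HSPA9, GRPEL1 and DNAJA3 belong to the Hsp70 cycle of the matrix, and TRAP1 is a separate Hsp90. HSPA9 (mortalin), the Hsp70 of the matrix and motor of protein import, was at 9.63, 9.56 and 9.63 with lipofectamine and at 8.65, 8.91 and 8.81 with the siRNAs, a fall of 0.82 (SE 0.08, adjusted p = 0.00069). GRPEL1, which exchanges nucleotide on HSPA9, was at 9.80, 9.80 and 9.76 and then at 8.68, 9.12 and 8.86, a fall of 0.90 (SE 0.11, adjusted p = 0.0013). DNAJA3, its J-domain partner, was at 9.79, 9.83 and 9.81 and then at 9.01, 9.35 and 9.07, a fall of 0.67 (SE 0.09, adjusted p = 0.00199). In each gene the lowest control lay above the highest siRNA array.

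TRAP1, the mitochondrial Hsp90, was at 9.56, 9.54 and 9.50 with lipofectamine and at 8.50, 8.99 and 8.69 with the siRNAs, and it fell by 0.81 (SE 0.12, adjusted p = 0.00249). The 4 genes stood at 53.6% to 63% of their control levels. For comparison, HSP90AA1 in the cytosol stood at 80.7% and HSP90B1 in the ER at 80.3%. The 95% interval of TRAP1, −1.09 to −0.53, lay below those of HSP90AA1 (−0.40 to −0.22) and HSP90B1 (−0.45 to −0.19). Their control means differed, at 9.5 for TRAP1, 13.1 for HSP90AA1 and 11.9 for HSP90B1. Whether signal level bears on the size of a change was not tested, nor were differences between genes. Within the Hsp70 proteins, the interval of HSPA9 (−1.002 to −0.64) lay below that of the ER member HSPA5 (−0.50 to −0.13) and met the end of that of the cytosolic HSPA8 (−0.64 to −0.27).

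The ER folding chaperones were mixed, with 9 of 12 lower, 1 higher and 2 not passing. Calls in either direction made up 83.3%, against 45.1% of all genes tested. HSPA5 (BiP), the Hsp70 of the ER and keeper of its stress sensors, was at 7.37, 7.37 and 7.35 with lipofectamine and at 6.99, 6.97 and 7.20 with the siRNAs. HSP90B1 (GRP94), the Hsp90 of the ER, was at 11.91, 11.92 and 11.89 and then at 11.56, 11.51 and 11.69. Both fell by nearly the same amount, HSPA5 by 0.31 (SE 0.08, adjusted p = 0.0178) and HSP90B1 by 0.32 (SE 0.06, adjusted p = 0.00457). HYOU1, the exchange factor of HSPA5, fell by 0.24 (SE 0.06, adjusted p = 0.018), and HSPA13, an Hsp70 relative at ER membranes, fell by 0.27 (SE 0.07, adjusted p = 0.0221). The calls of HSPA5, HYOU1 and HSPA13 rested on having all controls: without lipofectamine replicate 1, 2 or 3 their adjusted p was 0.0619 to 0.081, and 8 rather than 11 ER genes fell.

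The J-domain proteins of the ER also differed among themselves. DNAJB11 (ERdj3), a partner of HSPA5 in folding, was at 11.15, 11.18 and 11.11 with lipofectamine and at 10.32, 10.76 and 10.74 with the siRNAs, a fall of 0.54 (SE 0.12, adjusted p = 0.0101). SDF2L1, which binds DNAJB11, was at 8.66, 8.69 and 8.65 and then at 7.77, 8.23 and 8.10, a fall of 0.64 (SE 0.12, adjusted p = 0.00541), the largest among the ER genes. In both of these partners the siFGFR3#35 array was the lowest. DNAJB9 (ERdj4), which acts in ER-associated degradation and restrains ERN1, went the other way: from 6.39, 6.40 and 6.35 it went to 6.88, 6.68 and 7.07, and it rose by 0.50 (SE 0.10, adjusted p = 0.00813). DNAJC3 (p58IPK), a further partner of HSPA5, changed by 0.08 (95% interval −0.07 to 0.23, adjusted p = 0.349).

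The lectin chaperones calnexin and calreticulin bind the same sugar on glycoproteins, calnexin in the membrane and calreticulin in the lumen. CANX was at 9.93, 10.00 and 9.90 with lipofectamine and at 9.54, 9.36 and 9.69 with the siRNAs, and it fell by 0.42 (SE 0.09, adjusted p = 0.00979). CALR was at 8.13, 8.16 and 8.08 and at 8.06, 8.27 and 8.36, a change of 0.11 with an interval of −0.10 to 0.32 (adjusted p = 0.325). The intervals of this pair did not overlap. CALR passed without siFGFR3#35 (0.20, adjusted p = 0.0441), the 1 siRNA array of CALR that lay below the controls.

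Of the secreted ER stress proteins, MANF was at 10.47, 10.43 and 10.38 with lipofectamine and at 9.85, 9.77 and 9.91 with the siRNAs, and it fell by 0.59 (SE 0.06, adjusted p = 0.00078). CRELD2 fell by 0.35 (SE 0.07, adjusted p = 0.00714). Among the 4 disulfide isomerases, which form and reshuffle disulfide bonds, only PDIA4 fell, by 0.40 (SE 0.06, adjusted p = 0.00306). Calls thus made up 25% of this group, against 45.1% of all genes tested. PDIA6 changed by −0.16 and missed the threshold (adjusted p = 0.0505), with all siRNA arrays below the controls. It passed with arrays centred on their median (−0.23, adjusted p = 0.0112), with the dimmest 50% left out (adjusted p = 0.0456) and without siFGFR3#3 (adjusted p = 0.0362). P4HB changed by 0.13 (interval −0.02 to 0.28) and PDIA3 by −0.02 (interval −0.16 to 0.11), so a change of PDIA3 as large as that of PDIA4 lay outside its interval.

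Of the 5 listed sensors and factors of ER stress, 1 fell, 1 rose and 3 did not pass. That was 40% in either direction, against 45.1% of all genes tested. DDIT3 (CHOP), a transcription factor induced by the PERK arm, was at 7.58, 7.62 and 7.70 with lipofectamine and at 7.11, 7.11 and 7.25 with the siRNAs, and it fell by 0.48 (SE 0.07, adjusted p = 0.00268). HERPUD1, an ER membrane protein that organises ER-associated degradation, was at 9.87, 9.94 and 9.88 and then at 10.25, 10.15 and 10.45, and it rose by 0.38 (SE 0.08, adjusted p = 0.00912). Both genes separated the groups fully.

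XBP1, whose mRNA is spliced by ERN1, was at 8.43, 8.42 and 8.38 with lipofectamine and at 8.47, 8.36 and 8.40 with the siRNAs, a change of 0.00 with an interval of −0.14 to 0.14. These rows count the gene as a whole and do not tell the spliced XBP1 mRNA from the unspliced. ERN1 changed by −0.28 (adjusted p = 0.069) and ATF6 by 0.19 (adjusted p = 0.12). ERN1 passed toward lower levels without siFGFR3#3 (adjusted p = 0.0179) and with arrays centred on their median (adjusted p = 0.0319), and ATF6 toward higher levels without siFGFR3#36 (adjusted p = 0.00831) and with arrayWeights (adjusted p = 0.0429). HERPUD1 and DNAJB9 thus rose beside lower HSPA5, HSP90B1 and DDIT3, all of which are known as targets of the unfolded protein response.

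ATF6 binds the ER stress response element, spelled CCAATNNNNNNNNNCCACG. In the same promoter windows, on either strand, these exact letters were found in 7 of 20 ER genes with a promoter in the table (35%), in 0 of 19 cytosolic and 0 of 3 mitochondrial genes, and in 25 of 27303 genes in all (0.0916%). Of the 7 genes, HSP90B1, HSPA5, CANX and CRELD2 fell, while CALR, PDIA6 and XBP1 did not pass. HERPUD1 and DNAJB9, the ER genes that rose, held no exact match in these windows, which says nothing about the factor itself. The element includes the letters CCAAT, which alone were present in 90% of the ER genes and 39.7% of all genes. The stretches below are shown because genes with the same element differed in their change; a match on the opposite strand reads as its reverse complement.
HSPA5, chr9:125241371-125241429 (minus strand): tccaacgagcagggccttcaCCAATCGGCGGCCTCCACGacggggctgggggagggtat
HSP90B1, chr12:103930196-103930254 (plus strand): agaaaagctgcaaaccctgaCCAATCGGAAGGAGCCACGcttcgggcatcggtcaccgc
CANX, chr5:179698758-179698816 (plus strand): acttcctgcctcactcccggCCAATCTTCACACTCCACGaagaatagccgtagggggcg
CRELD2, chr22:49918534-49918592 (plus strand): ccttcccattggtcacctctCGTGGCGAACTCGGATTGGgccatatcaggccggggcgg
CALR, chr19:12938364-12938422 (plus strand): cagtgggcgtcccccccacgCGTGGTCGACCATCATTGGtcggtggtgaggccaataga
PDIA6, chr2:10812833-10812891 (minus strand): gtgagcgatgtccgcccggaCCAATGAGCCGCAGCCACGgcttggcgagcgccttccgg
XBP1, chr22:28800583-28800641 (minus strand): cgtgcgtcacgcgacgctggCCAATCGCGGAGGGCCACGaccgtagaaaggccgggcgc

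The palindrome CACGTG, an E-box to which MYC with MAX can bind, was present in the windows of 5 of 42 members (11.9%), against 8.78% of all genes. The 5 were HSPA9 in mitochondria and HSP90B1, CANX, DNAJB9 and HERPUD1 in the ER, of which DNAJB9 and HERPUD1 rose and the others fell. MYC itself fell by 0.46 (SE 0.06, adjusted p = 0.00202), with levels of 10.05, 10.11 and 9.95 on the lipofectamine arrays and 9.50, 9.62 and 9.60 on the siRNA arrays.

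The siRNAs were next compared with the controls one at a time. This used limma with 4 levels, the controls and each siRNA, so that the error comes from the controls and a lone siRNA array is taken to vary as they do. The p-values of this model compare arrays, not conditions, and the siRNAs share their controls. The 4 mitochondrial genes fell with each siRNA. In the cytosol 16, 15 and 18 genes fell and 2 rose each time with siFGFR3#35, siFGFR3#36 and siFGFR3#3. In the ER 13, 13 and 11 genes fell and 3, 3 and 6 rose. Among all genes tested 30.3%, 26.8% and 30.3% fell and 30.4%, 22.7% and 29.9% rose, in all 60.7%, 49.5% and 60.2%.

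The listed genes of each compartment differed in which siRNA gave the lowest level. With siFGFR3#35 the median changes were −1.0 in mitochondria, −0.56 in the cytosol and −0.30 in the ER. With siFGFR3#36 they were −0.60, −0.39 and −0.25, and with siFGFR3#3 −0.82, −0.49 and −0.15. The array of siFGFR3#35 held the lowest siRNA level in 15 of 21 cytosolic (71.4%) and in all 4 mitochondrial genes, against 31.1% of all genes. The array of siFGFR3#36 held it in 15 of 21 ER genes (71.4%), against 39.6% of all genes, and the array of siFGFR3#3 in 0 of the 21, against 29.3%. These counts come from the same 3 arrays, so they are not independent of each other. Other proteostasis genes of the same compartments lay nearer to all genes as pooled sets. In 50 cytosolic genes siFGFR3#35 was lowest in 46%. By list its share was 60% of the other J-domain genes and 50% of the other Hsp70 and small heat shock genes. It was also 50% of the co-chaperones, but 25% of prefoldin and chaperonin helpers. In 16 mitochondrial genes siFGFR3#35 was lowest in 31.2% and siFGFR3#36 in 43.8%, and siFGFR3#36 was lowest in 43.2% of 88 ER genes. Within these ER genes, however, siFGFR3#36 was lowest in 68.4% of the translocon and oligosaccharyltransferase list, near the share of the ER members. In the other ER lists it was lowest in 27.8% to 39.3%.

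**Figure D3:**
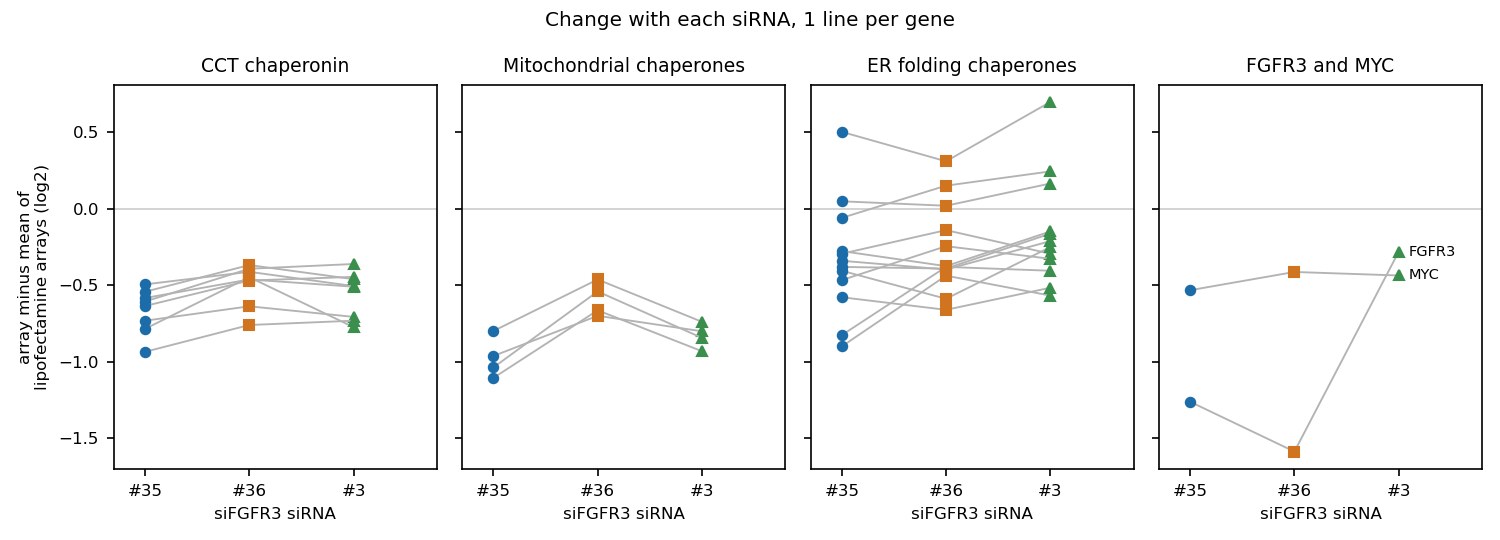
Change of each gene with each siRNA, as that array minus the mean of the 3 lipofectamine arrays on the log2 scale, with 1 line per gene; the last panel shows FGFR3 and MYC. The mitochondrial lines peak at siFGFR3#36 and several ER lines end highest at siFGFR3#3. On that array FGFR3 was lowered least and the mean of the interferon-stimulated genes was raised least.

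Each siRNA array was also set against the mean of the other siRNA arrays in the same model. All 4 mitochondrial genes were lower with siFGFR3#35 and higher with siFGFR3#36 than with the others, with TRAP1 at −0.35 (adjusted p = 0.00075) and 0.40 (adjusted p = 0.00026). For siFGFR3#3 the differences ran from −0.11 for DNAJA3 (adjusted p = 0.139) to 0.03 for HSPA9 (adjusted p = 0.741). For siFGFR3#35, siFGFR3#36 and siFGFR3#3, 4, 10 and 8 of 21 ER genes passed, and 9, 9 and 1 of 21 cytosolic genes. Among all genes tested 26.5%, 32.2% and 18.4% passed for siFGFR3#35, siFGFR3#36 and siFGFR3#3. Of these, 14.5%, 14.5% and 9.88% of all genes were higher and 12%, 17.7% and 8.54% lower.

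In the ER the array with the smallest loss of FGFR3 also showed the smallest falls of several chaperones. The difference of siFGFR3#3 from the other siRNAs was 0.22 for HSPA5 (adjusted p = 0.0304), 0.16 for HSP90B1 (adjusted p = 0.0234), 0.25 for CANX (adjusted p = 0.0107) and 0.18 for HSPA13 (adjusted p = 0.0401). The genes that rose went furthest with the same siRNA: DNAJB9 was 0.29 above the other siRNAs (adjusted p = 0.0175) and HERPUD1 0.25 above (adjusted p = 0.00559). DNAJB11 and SDF2L1 had another order, with siFGFR3#35 lowest, by 0.43 (adjusted p = 0.00014) and 0.40 (adjusted p = 5e-04) against the others. The mitochondrial chaperones fell by 0.74 to 0.93 with siFGFR3#3, more than the 0.46 to 0.70 with siFGFR3#36, although FGFR3 was at 82.2% with the former and at 33.3% with the latter. The array of siFGFR3#3 also had the lowest mean of the interferon-stimulated genes among the siRNA arrays. That mean was 7.58, against 8.27 with siFGFR3#35 and 10.31 with siFGFR3#36. The order of FGFR3 loss and that of the interferon-stimulated genes therefore cannot be told apart here. With 1 array per siRNA no relation to either level was tested.

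Other proteostasis genes, from 9 lists that share no gene with the 46, were read beside them, and 154 of their 161 matched genes were tested. In the cytosol 24 of 50 fell and 5 rose, with a median of −0.22. In mitochondria 9 of 16 fell and 1 rose, with a median of −0.26. In the ER 22 of 88 fell and 18 rose, with a median of −0.02, against 24.6% and 20.6% of all genes and a median of −0.04. Without lipofectamine replicate 1, 2 or 3 the ER counts were 10, 10 and 12 lower and 10, 9 and 8 higher, and the cytosolic genes that rose numbered 1, 1 and 2. Without lipofectamine replicate 1, 5 of the 16 mitochondrial genes fell. With a control left out fewer of all genes passed too: 14.5%, 14.7% and 14.6% fell and 12.6%, 13.1% and 12.3% rose. The counts below without 1 control are to be read beside these shares. The gene that rose in mitochondria, the protease subunit SPG7 (0.23, adjusted p = 0.0374, chosen after its value was seen), did not pass without any 1 control (adjusted p 0.0781 to 0.132), without siFGFR3#3 or with arrays centred on their median.

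Among Hsp90 and Hsp70 co-chaperones, 11 of 18 fell and 1 rose, 66.7% in either direction against 45.1% of all genes tested. FKBP4, an immunophilin that binds Hsp90 in steroid receptor complexes, was at 5.85, 5.85 and 5.78 with lipofectamine and at 4.72, 5.07 and 4.97 with the siRNAs, a fall of 0.91 (SE 0.10, adjusted p = 0.00107). BAG2, which inhibits the ubiquitin ligase STUB1, fell by 0.71 (SE 0.12, adjusted p = 0.00386). The 1 that rose, named after its value was seen, was the exchange factor BAG1 (0.33, adjusted p = 0.0273), which did not pass without any 1 control (adjusted p 0.0701 to 0.103) or with arrays centred on their median.

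Of the other Hsp70 and small heat shock genes 6 of 10 fell, among them HSPA6 (−0.41, adjusted p = 0.032) and HSPA2 (−0.34, adjusted p = 0.0287). Calls in either direction made up 60% of the list, against 45.1% of all genes tested. HSPA6 had levels of 4.61 to 4.89 in controls, close to the limit on dim rows of 3.89. Without lipofectamine replicate 1, 3 genes of this list fell. With the dimmest 50% left out 3 fell too, but that filter takes dim genes such as HSPA6 out of testing. The latter count is therefore not out of 10 and does not show that calls were lost.

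Prefoldin, which hands unfolded actin and tubulin to CCT, and helpers of the chaperonin were lower in 5 of 12 cases and higher in 1. That was 50% in either direction, against 45.1% of all genes tested. PFDN2 was at 10.08, 10.11 and 10.05 with lipofectamine and at 9.31, 9.58 and 9.45 with the siRNAs, a fall of 0.63 (SE 0.07, adjusted p = 0.00126), and PFDN4 fell by 0.62 (SE 0.10). The prefoldin subunit PFDN5 rose by 0.22 (SE 0.05, adjusted p = 0.0155) and was named after its value was seen. Without lipofectamine replicate 1, 2 or 3, 3 of the list fell and PFDN5 did not pass (adjusted p 0.0544 to 0.0656). Of the other J-domain genes of cytosol and nucleus 3 of 10 rose and 2 fell, a share in either direction of 50% against 45.1% of all genes. DNAJB2 was at 7.40, 7.42 and 7.40 and then at 8.28, 8.05 and 8.01, a rise of 0.71 (SE 0.08, adjusted p = 0.00122), whereas DNAJC9, a histone chaperone, fell by 0.64 (SE 0.08, adjusted p = 0.00166). Without lipofectamine replicate 1 or 2, 1 of the list rose.

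Among other mitochondrial chaperones and proteases, the disaggregase CLPB was at 5.85, 5.96 and 5.87 with lipofectamine and at 5.10, 5.38 and 5.36 with the siRNAs, a fall of 0.61 (SE 0.10, adjusted p = 0.00306). TIMM44, which tethers HSPA9 to the import channel, fell by 0.58 (SE 0.09, adjusted p = 0.00279). Both changes were smaller than the smallest among the mitochondrial members, −0.67, although they were the largest of their list.

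In the ER, other folding factors fell in 9 and rose in 4 of 28 cases, 46.4% in either direction against 45.1% of all genes tested. CRELD1, a relative of CRELD2, was higher by 0.62 (SE 0.08, adjusted p = 0.00173) and the prolyl isomerase FKBP11 lower by 0.44 (SE 0.08, adjusted p = 0.00589). Without lipofectamine replicate 1, 2 or 3, 2, 2 and 3 of the folding factors fell and 1 rose each time, and without the variance trend 5 fell. In ER-associated degradation 8 of 23 fell and 7 rose, 65.2% in either direction against 45.1% of all genes tested. UBXN8, an adaptor of the ATPase VCP, fell by 0.61 (SE 0.07, adjusted p = 0.00128), and EDEM2, which trims mannose from misfolded glycoproteins, rose by 0.51 (SE 0.11, adjusted p = 0.0112), beside HERPUD1 and DNAJB9 above. Of this list 5 fell without lipofectamine replicate 2, and 4 and 3 rose without lipofectamine replicate 2 and 3.

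The translocon and oligosaccharyltransferase changed in few cases, with 3 of 19 lower and 1 higher, 21.1% in either direction against 45.1% of all genes. SEC11C, of the signal peptidase, fell by 0.37 (SE 0.08, adjusted p = 0.011) and SSR3, of the translocon-associated complex, by 0.35 (SE 0.05, adjusted p = 0.00274). The gene that rose, DDOST (0.18, adjusted p = 0.0367, named after its value was seen), no longer passed without any 1 control (adjusted p 0.0874 to 0.123), without siFGFR3#35 or siFGFR3#3, without the variance trend or with arrays centred on their median, and without lipofectamine replicate 1, 1 gene of the list fell. Of other unfolded protein response genes 6 of 18 rose and 2 fell, 44.4% in either direction against 45.1% of all genes tested. The pseudokinase TRIB3, a target of DDIT3, was at 6.92, 7.06 and 6.95 with lipofectamine and at 6.12, 6.14 and 5.85 with the siRNAs, a fall of 0.94 (SE 0.10, adjusted p = 0.00084). DDIT4 rose by 0.64 (SE 0.14, adjusted p = 0.0103). Without any 1 of the controls 1 gene of the list fell, and with arrays centred on their median 4 did.

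**Figure D4:**
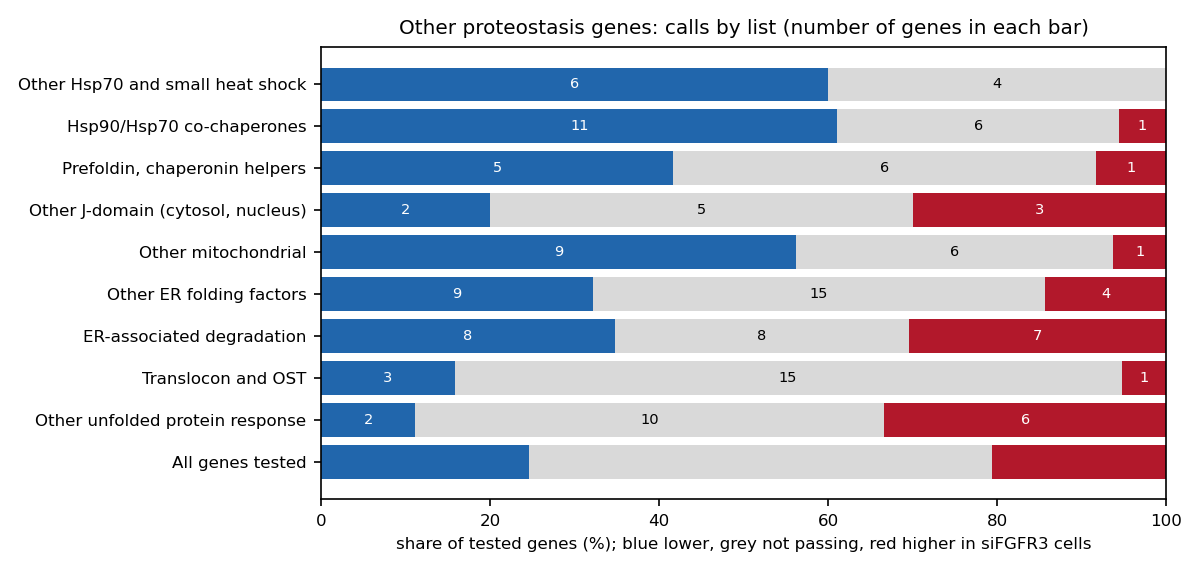
Share of tested genes that were lower (blue), not passing (grey) or higher (red) in siFGFR3 cells at an adjusted p under 0.05 in limma, for 9 lists of other proteostasis genes and for all 13552 genes tested; numbers in the bars are genes. The co-chaperone and mitochondrial bars are mainly blue. The bar for other unfolded protein response genes holds 6 higher and 2 lower genes, 44.4% in either direction against 45.1% of all genes tested.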

How the data were processed

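The authors deposited log2 expression levels; the submitters' processing notes name RMA and affy, without versions. RMA equalises the distributions of all arrays, which can hide a shift that most genes share. Rows are named by Entrez gene ID; names came from the platform annotation, updated through RefSeq's GRCh38.p14 table. The build behind the probes is not given in the sources used. The dimmest 30% of rows by mean level (5809 rows, below 3.89) were left out and 13552 were tested.

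Differences between groups were tested with limma (version 3.58.1, under R 4.3.3; lmFit, then eBayes with a variance trend), two-sided and adjusted by Benjamini-Hochberg over all rows tested; calls are those with an adjusted p under 0.05. Each siRNA was also a level of its own in a model with 4 levels. The procedure was tested on simulated data. An exact permutation test of 3 against 3 cannot go below 0.1, and the number of arrays limits the precision. The members, gene lists and tests were chosen with earlier results of these data known. All members could be named; of each other list the 2 passing genes with the largest change and no overlap were named. Alternatives were other filters on dim rows, no variance trend, median centring, arrayWeights, the 4-level mean and leaving out each array. SE are moderated standard errors of the change.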

Additional observations from a re-analysis of the deposited data

How the results depend on the processing

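Of the 33 members that passed, 30 kept direction and call under all 12 alternatives, and the other 3 (HSPA5, HSPA13 and HYOU1) lost their call only where 1 control was left out; none changed sign. Compartment medians kept their sign and order under every alternative. Leaving out 1 array, they ran from −0.91 to −0.72 in mitochondria, −0.50 to −0.42 in the cytosol and −0.33 to −0.22 in the ER; the genes that fell numbered 4 throughout, 15 to 17 and 8 to 13, and those that rose 0, 1 to 2 and 2 to 3. The mean of the siRNAs in the 4-level model, whose error comes from the controls alone, called 3 cytosolic and 5 ER genes higher, and passed 10 members that did not pass in the model with 2 groups, while 69.2% of all genes passed; arrayWeights called 2 cytosolic genes higher. With siFGFR3#36 alone, 1 rather than 2 cytosolic genes rose without the variance trend, an alternative chosen after seeing the data. XBP1, which never passed, changed by −0.064 with median centring and −0.002 with arrayWeights; leaving out 1 array gave −0.029 to 0.029, with −0.012 without lipofectamine replicate 3. The cause was not tested. Median centring moved the median of all genes from −0.04 to −0.11. Without lipofectamine replicate 1, 2 or 3, 27%, 27.7% and 26.9% of all genes passed in place of 45.1%. No paired analysis was possible because the siRNA arrays are named by siRNA and share no replicate numbering with the controls.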
